A study of Homo sapiens with 9 samples.

Results

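The genes described here encode the factors that start and carry out translation on cytosolic ribosomes, measured as mRNA in MOLM13 cells in which the RNA helicase DDX41 was knocked down. Members were chosen by gene symbol, as the rows that begin with EIF and a digit from 1 to 6, or with EEF1 or EEF2, together with PABPC1 and PABPC4. The rule left out the 4 eIF2 kinases, EIF1AY, 2 pseudogenes and 2 antisense RNAs, and 61 of the 30017 genes in the table remained. Of these, 58 passed the filter on low counts and were tested among 12712 genes in all. The other 3 members, EIF4A1, EIF4E1B and the read-through gene EEF1E1-BLOC1S5, were listed at 0 counts in every library. EIF4A1, the main eIF4A helicase of most cells, is thus absent from every result that follows, and nothing is said here about its expression.

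MOLM13 is a human acute myeloid leukemia cell line. The cells were transduced with pLKO-GFP lentivirus carrying a control hairpin (sh-Control) or 1 of 2 hairpins against DDX41 (Sh-DDX41_1 and Sh-DDX41_2), and were sorted on day 4 after transduction. All groups thus share the virus, the marker, the sort and the single parental line, and each hairpin was set against the same 3 sh-Control libraries. Each group holds 3 libraries, lettered A, B and D, and because the labels do not say whether the letters mark separate cultures, p-values measure the spread between these samples, which may be technical. Total counts ranged from 16385238 to 20510032 per library, and levels are given in CPM, the counts of a gene scaled to a common total of tested genes with TMM factors.

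DDX41 itself was at 117, 115 and 113 CPM in the sh-Control libraries, 12.2, 12.9 and 9.95 in Sh-DDX41_1 and 38.9, 39.9 and 42.5 in Sh-DDX41_2. The groups did not overlap, and the log2 fold changes were -3.29 ± 0.088 (log2 ± SE, edgeR adjusted p = 4.10e-12) and -1.51 ± 0.077 (log2 ± SE, edgeR adjusted p = 7.04e-09), which left 10.2% and 35.2% of the control level. Each level of DDX41 loss comes from 1 hairpin, so the depth of the knockdown and other effects of a hairpin cannot be told apart. All 8 myeloid markers examined, among them CD33, FLT3 and SPI1, were detected, with a summed level of 2047 to 2115 CPM in sh-Control, 2079 to 2098 in Sh-DDX41_1 and 2995 to 3019 in Sh-DDX41_2, where LYZ stood at 1795 to 1833 CPM against 877 to 987 in sh-Control. The 4 T and B cell markers summed to at most 2.61 CPM with MS4A1 at 0, and 4 epithelial and fibroblast markers to at most 0.688 CPM with KRT19 and COL1A2 at 0. The part of the myeloid marker difference in the results for Sh-DDX41_2 was not tested.

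Translation of most mRNAs starts when the eIF4F complex, made of the cap-binding protein eIF4E, the helicase eIF4A and the scaffold eIF4G, recruits the small ribosomal subunit with its bound eIF3 and the eIF2 ternary complex, which carries the initiator tRNA. eIF4E-binding proteins block that step, eIF2B recharges eIF2 with GTP, and after the subunits join, eEF1A delivers aminoacyl-tRNAs while eEF2 moves the ribosome along the mRNA. Many mRNAs of the elongation factors and of some initiation factors belong to the 5′ terminal oligopyrimidine (TOP) class, whose transcripts start with a C followed by a run of pyrimidines. TOP mRNAs are known for translation that follows mTORC1 activity through the binding protein LARP1, which also guards their stability.

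Because that class cuts across the members, their transcript starts are shown first. RefSeq promoter records on GRCh38.p14 were found for 49 of the 61 members, and 12 of the 49 (24.5%) had a listed start with a C followed by 4 pyrimidines, searched on the transcribed strand only. The same start was listed for 697 of 9005 tested genes with a record (7.74%) and at 1429 of all 35116 starts (4.07%). The lines below give, for 6 members with that start and 6 without it, the 10 bases before the start and the first 20 transcribed bases of the first exon, read 5′ to 3′ on the strand of the gene, with the first 5 transcribed bases in capitals. These 12 have 1 listed start each and were picked after their values were seen, to show members that rose and fell. EIF4B has the start and was not called, and EEF1G and EIF2B2 lack it and rose. EEF1G is nonetheless among the known TOP mRNAs listed below. No record was found for EEF1A2, EEF1D, EIF2S2, EIF3A, EIF3CL, EIF3E, EIF3G, EIF3H, EIF3L, EIF4EBP1, PABPC1 and PABPC4.
EEF1A1, chr6:73521013-73521042, minus strand: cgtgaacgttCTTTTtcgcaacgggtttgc
EEF2, chr19:3985444-3985473, minus strand: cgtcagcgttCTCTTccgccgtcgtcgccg
EIF4A2, chr3:186783567-186783596, plus strand: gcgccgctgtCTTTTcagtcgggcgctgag
EIF3F, chr11:7987327-7987356, plus strand: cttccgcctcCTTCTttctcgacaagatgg
EIF2S3, chrX:24054946-24054975, plus strand: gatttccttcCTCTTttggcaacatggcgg
EIF4B, chr12:53006446-53006475, plus strand: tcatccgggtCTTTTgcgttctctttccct
EEF1G, chr11:62573872-62573901, minus strand: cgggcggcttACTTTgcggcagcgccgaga
EIF2B2, chr14:75002911-75002940, plus strand: cgcccgccccGGAAGtgcaaactgtgtggt
EEF1E1, chr6:8102529-8102558, minus strand: tgcaggtctcGCGTCtgccaggagctacgg
EIF4EBP2, chr10:70404135-70404164, plus strand: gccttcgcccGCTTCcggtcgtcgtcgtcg
EIF2B5, chr3:184135348-184135377, plus strand: cagcttccttGCGGAagtggtgaccgtgag
EIF4E, chr4:98929114-98929143, minus strand: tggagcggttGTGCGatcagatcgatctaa

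The first 6 begin with C and a pyrimidine run in capitals, and the last 6 begin with another base, A in EEF1G and G in the rest. The other 6 members with the start were EEF1B2 (at the second of 2 listed starts), EIF2A, EIF2D, EIF3D, EIF3K and EIF3M.

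The summed counts of the members held a larger share of the library with each hairpin than in control cells, and 3 abundant members carried most of it. Their counts made up 4.26%, 4.01% and 4.19% of all counts in the sh-Control libraries, 5.65%, 5.50% and 6.13% in Sh-DDX41_1 and 4.69%, 4.80% and 4.66% in Sh-DDX41_2. The means were 4.15% ± 0.126, 5.76% ± 0.328 and 4.72% ± 0.0725 (SD, n = 3), and no group overlapped another. EEF1A1 alone supplied 30.3% to 32.7% of the members' counts in control cells and 36.7% to 40.3% in Sh-DDX41_1. Without it the shares were 2.86% ± 0.0957, 3.57% ± 0.0883 and 3.15% ± 0.0204 (SD, n = 3). Each of these differences gave p = 0.1 in a two-sided exact permutation test, the smallest value that 3 against 3 libraries allow. EEF1A1, EEF2 and PABPC1, the 3 most abundant members, together held 2.28% ± 0.102, 3.66% ± 0.252 and 2.81% ± 0.0565 of the counts (SD, n = 3). The other 58 members held 1.87% ± 0.0255, 2.11% ± 0.0762 and 1.91% ± 0.0165 (SD, n = 3), so that with Sh-DDX41_2 little of the rise lay outside those 3 genes.

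**Figure D1:**
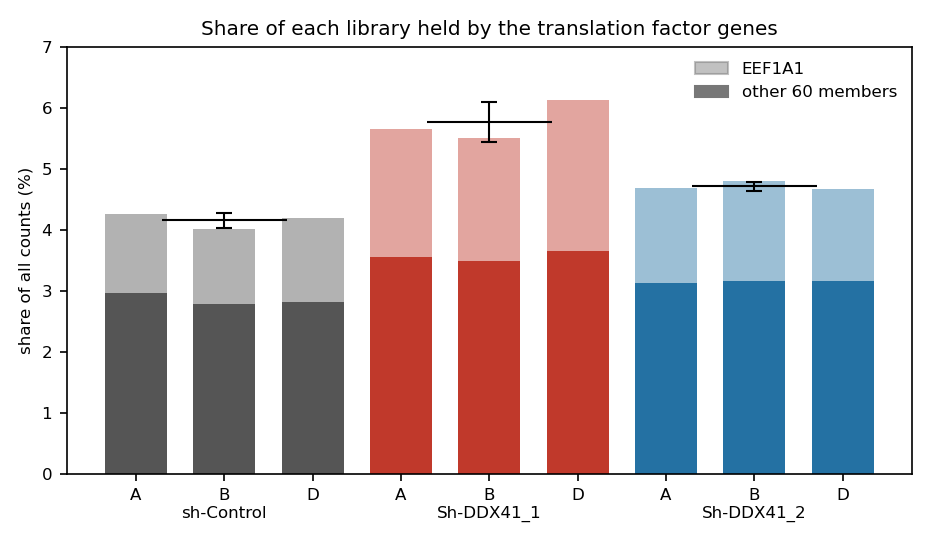
Share of all counts (%) held by the 61 translation factor genes in each of the 9 libraries, with EEF1A1 in the lighter part of the bar and the other members in the darker part. The black line and error bar give the group mean and SD (n = 3). The Sh-DDX41_1 libraries reach 5.50% to 6.13%, above the Sh-DDX41_2 libraries at 4.66% to 4.80%, which in turn lie above the sh-Control libraries at 4.01% to 4.26%.

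Levels between genes were compared per kilobase of merged exons. In control cells EEF1A1 was highest at 2162 CPM per kb, followed by EEF2 at 1294, PABPC1 at 971, EEF1G at 594 and EEF1B2 at 394. Among genes named as initiation factors, whatever their role, EIF5A (275 CPM per kb) and EIF3E (267) led. The mRNA of the inhibitor EIF4EBP1 stood at 242 CPM per kb against 6.70 for the cap-binding protein EIF4E that its product binds. Most of that gap comes from the merged exons, which cover 14.067 kb for EIF4E and 1.073 kb for EIF4EBP1, since without division by length EIF4E counts were 0.364 ± 0.0452 of those of EIF4EBP1 (SD, n = 3). The lowest of the tested members were EIF4E3 at 2.10, EEF1A2 at 0.816 and EIF5A2 at 0.614 CPM per kb.

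The first comparison asked how these mRNAs differed when DDX41 was most reduced, in Sh-DDX41_1 against sh-Control. The mRNAs of 5 of 6 elongation factors and 8 of 14 eIF3 genes rose and 0 of them fell, the cap-binding complex split, and the mRNAs of 2 eIF4E-binding proteins, 3 scanning factors, EEF1E1 and EEF2K fell. The share called was 83.3% of the elongation factors, 57.1% of the eIF3 genes and 72.7% of the cap-binding complex and its partners. It was 50% of the eIF4E-binding inhibitors and 50% of the scanning factors. Of the 58 members, 38 were called (65.5%), 23 higher and 15 lower, where the background over all tested genes was 47.8% called, 23.7% higher and 24.1% lower. The members' median log2 fold change was 0.12, against 0.012 over all tested genes. For 39 of 58 members no library overlapped the other group, against 53.1% of all tested genes. Most changes were small, and 7 of the 38 called members, 4 higher and 3 lower, changed by 1.5-fold or more. Over all tested genes, 2336 of the 6078 called genes changed by that much. With upper quartile factors the members split into 27 higher and 10 lower, and the share of higher calls over all genes went from 49.5% to 61.1%. Offsets for exon length and GC content, an alternative chosen after seeing the data, left 23 higher and 9 lower, with the calls of EIF1AX, EIF2S1, EIF4E, EIF5, EIF5A2 and EIF5B lost. Libraries were also left out 1 at a time, and where this ended the call of a gene given with its test the libraries are named beside it.

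**Figure D2:**
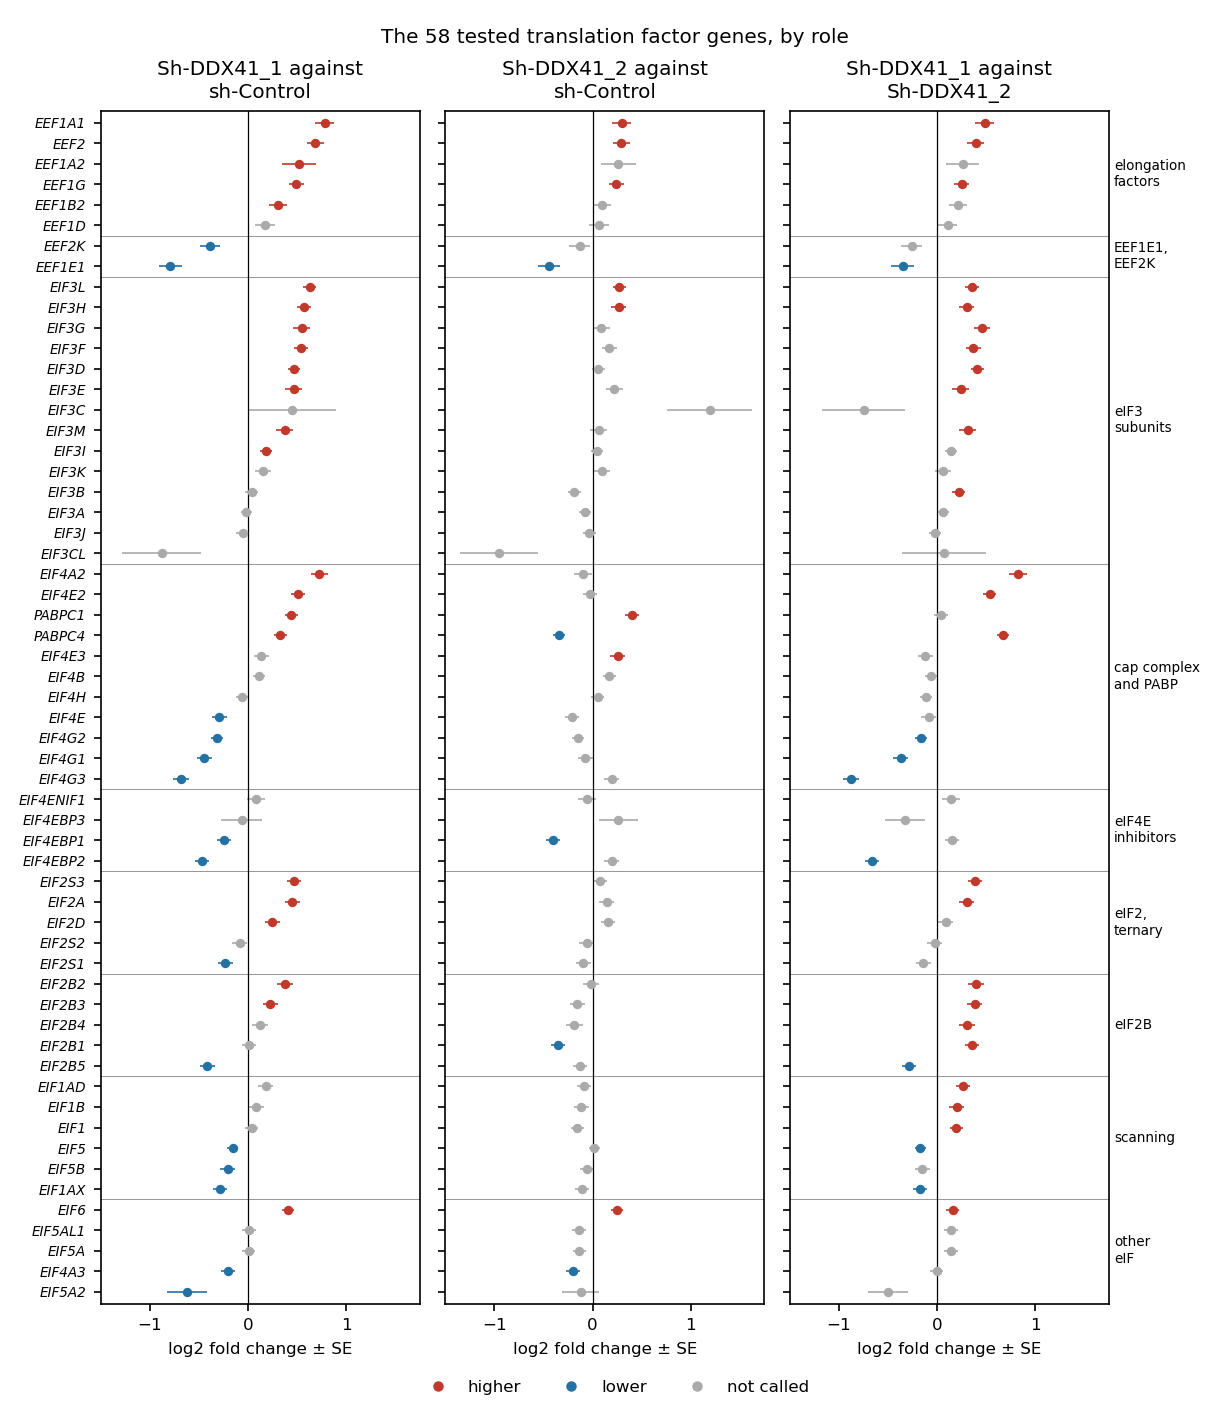
Log2 fold change ± SE (edgeR fit to all 9 libraries) of the 58 tested members, grouped by role from top to bottom, for each hairpin against sh-Control and for the direct difference between the hairpins. Red and blue points were called higher and lower at an adjusted p under 0.05 and grey points were not called. In the first panel the elongation factors and most eIF3 subunits lie to the right of 0, and the eIF4G genes to the left.

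Among the elongation factors, 5 of 6 were higher with Sh-DDX41_1 and 0 were lower. EEF1A1, which delivers aminoacyl-tRNA to the ribosome, stood at 12924, 11988 and 13663 CPM in the sh-Control libraries, 20706, 19830 and 25710 in Sh-DDX41_1 and 15697, 16641 and 14989 in Sh-DDX41_2. The 3 Sh-DDX41_1 libraries were the highest of all 9, and the log2 fold change was 0.78 ± 0.096 (log2 ± SE, edgeR adjusted p = 1.10e-05), a rise of 71.7%. Its close relative EEF1A2, far less abundant per length, was at 4.72, 3.67 and 3.63 CPM in the sh-Control libraries, 5.91, 4.67 and 6.67 in Sh-DDX41_1 and 4.43, 4.56 and 5.45 in Sh-DDX41_2. Here the groups overlapped, the log2 fold change was 0.52 ± 0.18 (log2 ± SE, edgeR adjusted p = 0.0235), and the call was lost without sh-Control B or D or Sh-DDX41_1 A or D (log2 0.41 to 0.50, edgeR adjusted p from 0.059 to 0.0835). How reads that fit both genes were counted is not given in the sources used here, so EEF1A1 and EEF1A2 are both uncertain. EEF2, the translocase, was at 5953, 4761 and 4925 CPM in the sh-Control libraries, 8347, 8106 and 8698 in Sh-DDX41_1 and 6229, 6488 and 6454 in Sh-DDX41_2. Every Sh-DDX41_1 library lay above every other, with a log2 fold change of 0.69 ± 0.083 (log2 ± SE, edgeR adjusted p = 9.56e-06).

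The subunits of the exchange factor that reloads eEF1A with GTP moved less. EEF1G was at 1741, 1503 and 1597 CPM in the sh-Control libraries, 2198, 2130 and 2475 in Sh-DDX41_1 and 1916, 1934 and 1868 in Sh-DDX41_2. EEF1G was higher in every Sh-DDX41_1 library than in any control and changed by 0.49 ± 0.075 (log2 ± SE, edgeR adjusted p = 8.27e-05). The catalytic subunit EEF1B2 was at 785, 705 and 776 CPM in the sh-Control libraries, 848, 851 and 1101 in Sh-DDX41_1 and 817, 821 and 779.9 in Sh-DDX41_2. EEF1B2 was higher in every Sh-DDX41_1 library than in any control and changed by 0.31 ± 0.09 (log2 ± SE, edgeR adjusted p = 0.0115). EEF1D, another catalytic subunit, was not called at 0.17 ± 0.098 (log2 ± SE, edgeR adjusted p = 0.163), and its level was 651 CPM in Sh-DDX41_1 D and 472 and 497 CPM in A and B. EEF1D passed the threshold without Sh-DDX41_1 A (log2 0.26, edgeR adjusted p = 0.0426).

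The genes named for elongation factors that are not themselves such factors went the other way. EEF1E1, a scaffold protein of the aminoacyl-tRNA synthetase complex, was at 24.3, 24.8 and 28.5 CPM in the sh-Control libraries, 14.2, 13.2 and 17.5 in Sh-DDX41_1 and 20.7, 18.5 and 17.9 in Sh-DDX41_2. All 6 knockdown libraries were below all 3 controls, and the log2 fold change with Sh-DDX41_1 was -0.79 ± 0.11 (log2 ± SE, edgeR adjusted p = 5.21e-05), the largest fall among the called members. EEF2K, the kinase that phosphorylates and inhibits eEF2, was at 41.2, 40.8 and 36.1 CPM in the sh-Control libraries, 30.7, 34.7 and 24.8 in Sh-DDX41_1 and 34.2, 35 and 38.7 in Sh-DDX41_2. EEF2K was lower in every Sh-DDX41_1 library than in any control and changed by -0.39 ± 0.11 (log2 ± SE, edgeR adjusted p = 0.00714).

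Of the 14 eIF3 genes, whose products form the scaffold that binds the small subunit, 8 were higher and 0 were lower with Sh-DDX41_1. EIF3L was at 521, 490.0 and 524 CPM in the sh-Control libraries, 795, 736 and 838 in Sh-DDX41_1 and 600.5, 646 and 605 in Sh-DDX41_2. The 3 groups were separate, with Sh-DDX41_2 between sh-Control and Sh-DDX41_1, and the log2 fold change with Sh-DDX41_1 was 0.63 ± 0.067 (log2 ± SE, edgeR adjusted p = 2.64e-06). EIF3H was at 916, 847 and 904 CPM in the sh-Control libraries, 1264, 1215 and 1474 in Sh-DDX41_1 and 1059, 1087 and 1061 in Sh-DDX41_2. EIF3H was higher in every Sh-DDX41_1 library than in any control and changed by 0.57 ± 0.074 (log2 ± SE, edgeR adjusted p = 2.04e-05). EIF3G, an RNA-binding subunit, was at 305, 258 and 266 CPM in the sh-Control libraries, 381, 377 and 451 in Sh-DDX41_1 and 270.0, 302 and 308 in Sh-DDX41_2. EIF3G was higher in every Sh-DDX41_1 library than in any control and changed by 0.54 ± 0.086 (log2 ± SE, edgeR adjusted p = 1.07e-04).
Smaller rises were called for EIF3F (0.54 ± 0.074 log2 units, edgeR adjusted p = 3.26e-05), EIF3D (0.47 ± 0.064 log2 units, edgeR adjusted p = 3.04e-05), EIF3E (0.46 ± 0.087 log2 units, edgeR adjusted p = 5.10e-04), EIF3M (0.37 ± 0.088 log2 units, edgeR adjusted p = 0.00271) and EIF3I (0.18 ± 0.062 log2 units, edgeR adjusted p = 0.0247). EIF3I was the weakest of them, and it lost its call without sh-Control B or D (log2 0.18 to 0.18, edgeR adjusted p from 0.0516 to 0.0619).

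EIF3A, the largest subunit and a core of the complex, was at 842, 871 and 839 CPM in the sh-Control libraries, 825, 833 and 859.7 in Sh-DDX41_1 and 797, 820.2 and 800.2 in Sh-DDX41_2. Its groups overlapped and the log2 fold change was -0.019 ± 0.058 (log2 ± SE, edgeR adjusted p = 0.804). EIF3B and EIF3J, at 0.034 ± 0.067 log2 units, edgeR adjusted p = 0.696 and -0.056 ± 0.063 log2 units, edgeR adjusted p = 0.49, were not called either, nor was EIF3K at 0.15 ± 0.08 log2 units, edgeR adjusted p = 0.125. The higher calls were thus subunits D, E, F, G, H, I, L and M. EIF3C and EIF3CL are near-identical copies and their values are uncertain. EIF3C was at 20.7, 17.5 and 16.4 CPM in the sh-Control libraries, 19, 19.2 and 36.2 in Sh-DDX41_1 and 19.2, 21.5 and 85.5 in Sh-DDX41_2, where 1 library, Sh-DDX41_2 D, stood far above the rest, and EIF3CL was at 16, 6.08 and 3.11 CPM in the sh-Control libraries, 4.28, 3.77 and 5.58 in Sh-DDX41_1 and 4.32, 4.17 and 4.48 in Sh-DDX41_2, where sh-Control A did. Neither was called with either hairpin when all libraries were used. EIF3CL passed the threshold with Sh-DDX41_1 without sh-Control D or Sh-DDX41_1 D (log2 -1.28 to -1.05, edgeR adjusted p from 0.0026 to 0.0491) and with Sh-DDX41_2 without sh-Control D (log2 -1.36, edgeR adjusted p = 0.00455). EIF3C passed it with Sh-DDX41_2 without Sh-DDX41_1 D or Sh-DDX41_2 A or B (log2 1.20 to 1.54, edgeR adjusted p from 0.0176 to 0.0291).

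Members of the cap-binding complex and its partners split into 4 higher and 4 lower of 11 tested. EIF4A2, the second eIF4A helicase gene, was at 239.9, 279 and 319.5 CPM in the sh-Control libraries, 439, 446 and 500.2 in Sh-DDX41_1 and 259, 265 and 259 in Sh-DDX41_2. All Sh-DDX41_1 libraries lay above the 6 others, and the log2 fold change was 0.72 ± 0.088 (log2 ± SE, edgeR adjusted p = 1.01e-05). Its close relative EIF4A1 was at 0 counts in every library. How reads that fit both genes were counted is not given in the sources used here, so EIF4A2 is uncertain. EIF4E2, a cap-binding protein that represses translation of its targets, was at 102, 101 and 99.8 CPM in the sh-Control libraries, 136, 137 and 159 in Sh-DDX41_1 and 103, 100.4 and 94.7 in Sh-DDX41_2. EIF4E2 was higher in every Sh-DDX41_1 library than in any control and changed by 0.51 ± 0.071 (log2 ± SE, edgeR adjusted p = 3.84e-05). PABPC1, the main cytoplasmic poly(A)-binding protein, was at 4899, 4511 and 4433 CPM in the sh-Control libraries, 6337, 5915 and 6535 in Sh-DDX41_1 and 6028, 6074 and 6163 in Sh-DDX41_2. The control libraries were the lowest, the knockdown groups overlapped each other, and the log2 fold change with Sh-DDX41_1 was 0.44 ± 0.069 (log2 ± SE, edgeR adjusted p = 1.03e-04). PABPC4, a second such protein, was at 235, 224 and 227 CPM in the sh-Control libraries, 286, 281 and 295 in Sh-DDX41_1 and 189, 184 and 169 in Sh-DDX41_2. PABPC4 was higher in every Sh-DDX41_1 library than in any control and changed by 0.33 ± 0.062 (log2 ± SE, edgeR adjusted p = 4.97e-04).

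The eIF4G genes, which encode the scaffolds, were all lower with Sh-DDX41_1. EIF4G1 was at 877, 789 and 719 CPM in the sh-Control libraries, 598, 612 and 542 in Sh-DDX41_1 and 752, 763 and 748 in Sh-DDX41_2. The Sh-DDX41_1 libraries were the lowest, and the log2 fold change was -0.44 ± 0.076 (log2 ± SE, edgeR adjusted p = 2.19e-04). EIF4G3 was at 135, 145 and 127 CPM in the sh-Control libraries, 83.8, 94.3 and 75.3 in Sh-DDX41_1 and 150.3, 154 and 162 in Sh-DDX41_2. EIF4G3 was lower in every Sh-DDX41_1 library than in any control and changed by -0.68 ± 0.082 (log2 ± SE, edgeR adjusted p = 8.40e-06), a fall of 37.8%. EIF4G2, which lacks the eIF4E-binding site of its relatives, was at 1421, 1496 and 1403 CPM in the sh-Control libraries, 1203, 1131 and 1135 in Sh-DDX41_1 and 1347, 1294 and 1249 in Sh-DDX41_2. EIF4G2 was lower in every Sh-DDX41_1 library than in any control and changed by -0.32 ± 0.063 (log2 ± SE, edgeR adjusted p = 7.63e-04). EIF4E itself was at 85.5, 96.6 and 101 CPM in the sh-Control libraries, 75, 73 and 82.6 in Sh-DDX41_1 and 82.3, 82.4 and 80.1 in Sh-DDX41_2. It was lower in every knockdown library than in every control, with a log2 fold change of -0.29 ± 0.074 (log2 ± SE, edgeR adjusted p = 0.00413), and the call was lost with the offsets for length and GC content (log2 fold change -0.16, edgeR adjusted p = 0.0899). EIF4B and EIF4H, cofactors of the helicase, and EIF4E3 were not called, at 0.11, -0.059 and 0.14 on the log2 scale.

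Of the 4 inhibitors that bind eIF4E, 2 were lower and 0 higher with Sh-DDX41_1. That was 50% of the list, near the 47.8% called over all tested genes. EIF4EBP1 was at 274, 244 and 262 CPM in the sh-Control libraries, 209.8, 205 and 242 in Sh-DDX41_1 and 198, 191 and 201 in Sh-DDX41_2. Both knockdown groups were below the controls, and the log2 fold change was -0.25 ± 0.073 (log2 ± SE, edgeR adjusted p = 0.011), which was lost without Sh-DDX41_1 A or B (log2 -0.21 to -0.20, edgeR adjusted p from 0.0525 to 0.0588) and with upper quartile factors (-0.17, edgeR adjusted p = 0.0728). EIF4EBP2 was at 195, 192 and 174 CPM in the sh-Control libraries, 142, 139 and 123 in Sh-DDX41_1 and 205, 221 and 214 in Sh-DDX41_2. EIF4EBP2 was lower in every Sh-DDX41_1 library than in any control and changed by -0.47 ± 0.072 (log2 ± SE, edgeR adjusted p = 9.11e-05). EIF4EBP3, at 2.05 to 3.37 CPM, and EIF4ENIF1, the transporter that takes eIF4E into the nucleus, were not called.

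Of the genes of eIF2 and the ternary complex, 3 were higher and 1 was lower with Sh-DDX41_1. EIF2S3, the GTP-binding gamma subunit, was at 362, 379.6 and 402 CPM in the sh-Control libraries, 506, 501 and 575 in Sh-DDX41_1 and 396, 419.8 and 393 in Sh-DDX41_2. EIF2S3 was higher in every Sh-DDX41_1 library than in any control and changed by 0.47 ± 0.07 (log2 ± SE, edgeR adjusted p = 6.84e-05). EIF2A and EIF2D, which encode alternative factors able to deliver the initiator tRNA, changed by 0.45 ± 0.076 log2 units, edgeR adjusted p = 2.24e-04 and 0.24 ± 0.075 log2 units, edgeR adjusted p = 0.0148, the latter lost without sh-Control A (log2 0.21, edgeR adjusted p = 0.0538). EIF2S1, the alpha subunit that eIF2 kinases phosphorylate, was at 167, 183 and 184 CPM in the sh-Control libraries, 143, 142 and 169 in Sh-DDX41_1 and 165, 173 and 163 in Sh-DDX41_2. Its groups overlapped at Sh-DDX41_1 D, the log2 fold change was -0.23 ± 0.075 (log2 ± SE, edgeR adjusted p = 0.0187), and the call was lost without sh-Control B or D or Sh-DDX41_1 A or B (log2 -0.21 to -0.18, edgeR adjusted p from 0.0569 to 0.0828). EIF2S2, the beta subunit, was not called at -0.084 ± 0.076 log2 units, edgeR adjusted p = 0.383, but passed the threshold without Sh-DDX41_1 D (log2 -0.17, edgeR adjusted p = 0.0228). EIF2S3 and EIF2S1, 2 of the 3 subunits of eIF2, thus moved in opposite directions.

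The eIF2B subunits also split. EIF2B5, which holds the catalytic domain, was at 111, 124 and 112 CPM in the sh-Control libraries, 87.6, 93.4 and 79.8 in Sh-DDX41_1 and 107, 106 and 104 in Sh-DDX41_2. EIF2B5 was lower in every Sh-DDX41_1 library than in any control and changed by -0.41 ± 0.072 (log2 ± SE, edgeR adjusted p = 2.48e-04). EIF2B2, a regulatory subunit, rose by 0.38 ± 0.08 log2 units, edgeR adjusted p = 0.00122, and EIF2B3 by 0.23 ± 0.08 log2 units, edgeR adjusted p = 0.0282, the latter lost without sh-Control A or B or Sh-DDX41_1 D (log2 0.17 to 0.20, edgeR adjusted p from 0.0698 to 0.0918). EIF2B1 was at 93.2, 97.4 and 104 CPM in the sh-Control libraries, 93.1, 96.2 and 108 in Sh-DDX41_1 and 74.4, 78.1 and 79.2 in Sh-DDX41_2. EIF2B1 overlapped between Sh-DDX41_1 and control libraries and was not called at 0.0084 ± 0.072 log2 units, edgeR adjusted p = 0.933, and EIF2B4 was not called at 0.12 ± 0.084 log2 units, edgeR adjusted p = 0.25.

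Of 6 scanning and start codon factors, 3 were lower and 0 higher with Sh-DDX41_1. That was 50% of the list, near the 47.8% called over all tested genes. All 3 calls were lost with the offsets for length and GC content. EIF1AX changed by -0.28 ± 0.07 log2 units, edgeR adjusted p = 0.00369, EIF5B, which joins the subunits, by -0.21 ± 0.074 log2 units, edgeR adjusted p = 0.0307 and EIF5, the GTPase activator of eIF2, by -0.16 ± 0.056 log2 units, edgeR adjusted p = 0.0312. The last 2 were the least stable. EIF5 lost its call without sh-Control D or Sh-DDX41_1 A, B or D or Sh-DDX41_2 A (log2 -0.16 to -0.13, edgeR adjusted p from 0.0514 to 0.0914), and EIF5B lost it without sh-Control B or D or Sh-DDX41_1 A or B (log2 -0.21 to -0.15, edgeR adjusted p from 0.0583 to 0.139). EIF1, which guards start codon choice, was at 426, 372 and 404 CPM in the sh-Control libraries, 403, 397 and 434 in Sh-DDX41_1 and 364, 361 and 353 in Sh-DDX41_2. EIF1 overlapped between Sh-DDX41_1 and control libraries and was not called at 0.038 ± 0.065 log2 units, edgeR adjusted p = 0.655.

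Among the remaining factors, EIF6, which keeps the ribosomal subunits apart, was at 157, 143 and 156 CPM in the sh-Control libraries, 204, 195 and 206 in Sh-DDX41_1 and 181, 188 and 174 in Sh-DDX41_2. The groups did not overlap, and the log2 fold change was 0.41 ± 0.063 (log2 ± SE, edgeR adjusted p = 9.54e-05). EIF4A3, a helicase of the exon junction complex rather than of initiation, was at 149.6, 143 and 165 CPM in the sh-Control libraries, 129, 132 and 136 in Sh-DDX41_1 and 138, 136 and 124 in Sh-DDX41_2. It was lower with Sh-DDX41_1 at -0.20 ± 0.069 log2 units, edgeR adjusted p = 0.0237, and the call was lost without sh-Control D or Sh-DDX41_1 A or B (log2 -0.20 to -0.15, edgeR adjusted p from 0.057 to 0.112) and with upper quartile factors (-0.13, edgeR adjusted p = 0.143). EIF5A, the hypusinated factor that helps ribosomes past difficult peptide bonds, was at 814, 757 and 753 CPM in the sh-Control libraries, 768, 725 and 840.4 in Sh-DDX41_1 and 723, 701 and 691 in Sh-DDX41_2. EIF5A overlapped between Sh-DDX41_1 and control libraries and was not called at 0.0051 ± 0.068 log2 units, edgeR adjusted p = 0.958. Its close relative EIF5A2, at 1.82 to 3.84 CPM, was lower at -0.62 ± 0.2 log2 units, edgeR adjusted p = 0.0193, a call that was lost without sh-Control B or D or Sh-DDX41_1 D (log2 -0.59 to -0.49, edgeR adjusted p from 0.0523 to 0.0751). EIF5AL1, a near-identical copy of EIF5A, was not called at 0.0066 on the log2 scale.

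Of the 38 calls with Sh-DDX41_1, 26 (19 higher and 7 lower) were called the same way in all 20 refits, which changed the scaling, the filter, the test or the libraries used. The 7 falls were EEF1E1, EEF2K, EIF2B5, EIF4EBP2, EIF4G1, EIF4G2 and EIF4G3. In bulk RNA, fewer cells of one kind and less RNA per cell cannot be told apart.

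**Figure D3:**
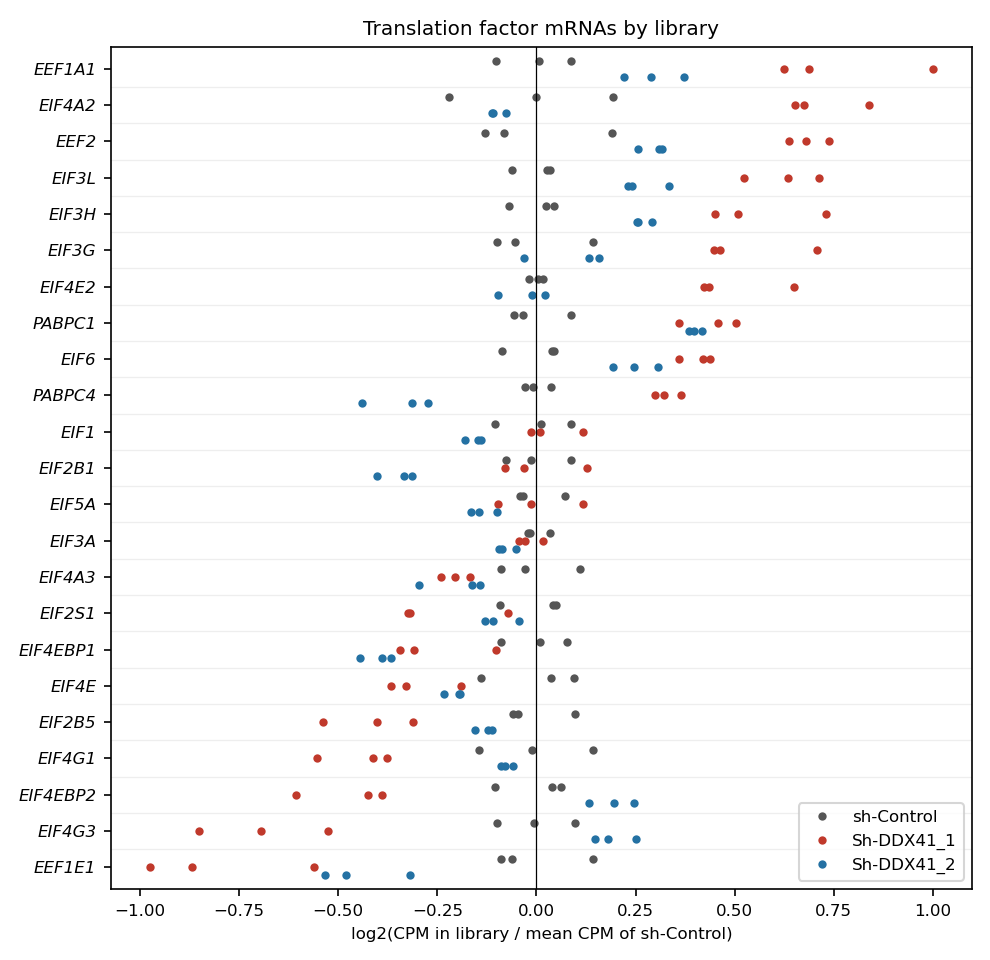
Level of the 23 named and tested members in each library, as log2 of its CPM over the mean CPM of sh-Control, ordered by the fold change with Sh-DDX41_1. Each point is 1 library (3 per group). Sh-DDX41_1 libraries of EEF1A1, EIF4A2 and EEF2 lie to the right of all others, those of EIF4G3 and EIF4G1 to the left, and the PABPC4 points of the 2 hairpins lie on opposite sides of the controls.

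The second comparison set Sh-DDX41_2, with the weaker knockdown, against the same sh-Control libraries, so its values are not independent of those above. Changes were fewer and smaller, and 13 of 58 members were called (22.4%), 8 higher and 5 lower, near the background of 25% called, 11.6% higher and 13.4% lower over all tested genes. No overlap between the groups was seen for 31 of 58 members, against 43.8% of all tested genes. The members' median log2 fold change was -0.023, against -0.011 over all genes. Of the called members 0 changed by 1.5-fold or more, against 901 of the 3174 called genes over all tested genes. The count of 13 called members depended on single libraries, with 6 members called without Sh-DDX41_2 B, 7 without Sh-DDX41_2 D and 25 without Sh-DDX41_1 D, a library outside the contrast that enters through the joint scaling and the shared spread. The higher members numbered 3 without sh-Control B, 5 without sh-Control D or Sh-DDX41_2 A, 2 without Sh-DDX41_2 B, 3 without Sh-DDX41_2 D and 16 without Sh-DDX41_1 D. Of the 13 calls, 5 were made in all 20 refits, namely PABPC1 higher and EIF4EBP1, EEF1E1, EIF2B1 and PABPC4 lower.

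The 8 members that were higher with Sh-DDX41_2 were 3 elongation factors, 2 eIF3 subunits, PABPC1, EIF4E3 and EIF6. PABPC1 changed most, by 0.40 ± 0.069 (log2 ± SE, edgeR adjusted p = 7.26e-04). EEF1A1 changed by 0.29 ± 0.095 (log2 ± SE, edgeR adjusted p = 0.0342) and lost its call without sh-Control A or B or Sh-DDX41_2 A, B or D (log2 0.25 to 0.33, edgeR adjusted p from 0.0538 to 0.138). EEF2 changed by 0.29 ± 0.083 (log2 ± SE, edgeR adjusted p = 0.0171) and lost its call without sh-Control B or D or Sh-DDX41_2 B or D (log2 0.24 to 0.29, edgeR adjusted p from 0.0601 to 0.0799). For EEF1G, at 0.24 ± 0.075 log2 units, edgeR adjusted p = 0.0287, the call was lost without sh-Control B or D or Sh-DDX41_2 A, B or D (log2 0.20 to 0.25, edgeR adjusted p from 0.0658 to 0.105). In all 3 genes the Sh-DDX41_2 libraries nonetheless lay above every control library.

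EIF3L was higher at 0.27 ± 0.066 log2 units, edgeR adjusted p = 0.00839, a call lost without Sh-DDX41_2 B (log2 0.24, edgeR adjusted p = 0.0541), and EIF3H by 0.27 ± 0.074 log2 units, edgeR adjusted p = 0.0165, a call lost without sh-Control B or Sh-DDX41_2 A, B or D (log2 0.24 to 0.27, edgeR adjusted p from 0.0515 to 0.0686). EIF6 was higher at 0.25 ± 0.063 log2 units, edgeR adjusted p = 0.0097 and lost its call without Sh-DDX41_2 B (log2 0.22, edgeR adjusted p = 0.0599). EIF4E3, a relative of the cap-binding protein, was at 23.7, 21.7 and 22.5 CPM in the sh-Control libraries, 24.7, 23.9 and 26.1 in Sh-DDX41_1 and 26.7, 27.6 and 26.9 in Sh-DDX41_2, which gave 0.26 ± 0.078 log2 units, edgeR adjusted p = 0.0264 with Sh-DDX41_2 and a call lost without sh-Control B or D or Sh-DDX41_2 A, B or D (log2 0.23 to 0.26, edgeR adjusted p from 0.0669 to 0.0949).

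The 5 members that were lower with Sh-DDX41_2 came from 5 different roles, and 0 of the 5 eIF2 and ternary complex genes and 0 of the 6 scanning factors were called (edgeR, DESeq2 and limma voom, with 0 and 1 at an unadjusted edgeR p under 0.05). Those counts rested on 1 library, since EIF2A (log2 0.15, edgeR adjusted p = 0.0491), EIF2D (log2 0.17, edgeR adjusted p = 0.034) and EIF1 (log2 -0.15, edgeR adjusted p = 0.0466) were called without Sh-DDX41_1 D. EEF1E1 changed by -0.44 ± 0.11 (log2 ± SE, edgeR adjusted p = 0.00973), EIF4EBP1 by -0.40 ± 0.073 (log2 ± SE, edgeR adjusted p = 0.00108), EIF2B1 by -0.35 ± 0.072 (log2 ± SE, edgeR adjusted p = 0.00266) and PABPC4 by -0.34 ± 0.062 (log2 ± SE, edgeR adjusted p = 0.00112). EIF4A3 was the weakest, at -0.20 ± 0.069 log2 units, edgeR adjusted p = 0.0465, and lost its call without sh-Control A or D or Sh-DDX41_1 A or B or Sh-DDX41_2 A, B or D (log2 -0.23 to -0.14, edgeR adjusted p from 0.0606 to 0.202). EIF4E was below all controls but missed the threshold at -0.21 ± 0.073 log2 units, edgeR adjusted p = 0.0507, and EIF4G1, EIF4G3 and EIF4EBP2 were not called at -0.076 ± 0.076 log2 units, edgeR adjusted p = 0.498, 0.19 ± 0.08 log2 units, edgeR adjusted p = 0.0908 and 0.19 ± 0.072 log2 units, edgeR adjusted p = 0.0619. EIF4E passed it without sh-Control A or Sh-DDX41_1 D (log2 -0.27 to -0.20, edgeR adjusted p from 0.0151 to 0.0185), EIF4G3 without Sh-DDX41_1 D (log2 0.20, edgeR adjusted p = 0.0183) and EIF4EBP2 without Sh-DDX41_1 D (log2 0.20, edgeR adjusted p = 0.0112).

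The third comparison tested the 2 hairpins directly against each other, where the control libraries enter only through the joint scaling and the shared spread. The hairpins differed for many members, and 32 of 58 (55.2%) were called, 24 higher and 8 lower in Sh-DDX41_1, against a background of 48.8% called, 24.6% higher and 24.2% lower. The hairpins' libraries were fully separate for 40 of 58 members, against 57.7% of all tested genes. The members' median difference was 0.14 on the log2 scale, against 0.014 over all genes. Of the 32 calls, 23 (19 higher and 4 lower) were made in all 20 refits, and without Sh-DDX41_2 A or Sh-DDX41_2 B 5 members were lower in place of 8.

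The 3 largest called differences lay in the cap-binding complex and its partners. EIF4G3 differed by -0.88 ± 0.082 (log2 ± SE, edgeR adjusted p = 6.70e-07) and EIF4A2 by 0.82 ± 0.088 (log2 ± SE, edgeR adjusted p = 2.76e-06). The value of EIF4A2 is uncertain here too, for the reason given above. PABPC4, higher than control with one hairpin and lower with the other, differed by 0.67 ± 0.062 (log2 ± SE, edgeR adjusted p = 6.57e-07). EIF4E2 differed by 0.53 ± 0.071 (log2 ± SE, edgeR adjusted p = 2.20e-05) and EIF4G1 by -0.37 ± 0.076 (log2 ± SE, edgeR adjusted p = 9.40e-04). PABPC1, which was higher than control with both, was not called between them at 0.041 ± 0.069 log2 units, edgeR adjusted p = 0.652. The ratio of PABPC1 to PABPC4 counts was 19.5 to 20.9 in control libraries, 21.0 to 22.2 in Sh-DDX41_1 and 31.9 to 36.6 in Sh-DDX41_2.

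EIF4EBP2 was lower in Sh-DDX41_1 than in Sh-DDX41_2, at -0.66 ± 0.072 (log2 ± SE, edgeR adjusted p = 3.30e-06), and EIF2B5 at -0.28 ± 0.072 (log2 ± SE, edgeR adjusted p = 0.00415). EEF1E1 differed by -0.35 ± 0.12 (log2 ± SE, edgeR adjusted p = 0.0217), a call that was lost without Sh-DDX41_1 A or B or Sh-DDX41_2 A (log2 -0.32 to -0.27, edgeR adjusted p from 0.0673 to 0.0992). All 5 eIF2B subunits differed, EIF2B1 to EIF2B4 being higher in Sh-DDX41_1 by 0.36, 0.40, 0.38 and 0.31 on the log2 scale, so the catalytic subunit EIF2B5 moved against the other 4. These 5 calls were made in all 20 refits.

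Of the elongation factors, EEF1A1 differed by 0.49 ± 0.095 (log2 ± SE, edgeR adjusted p = 6.75e-04), EEF2 by 0.39 ± 0.083 (log2 ± SE, edgeR adjusted p = 0.00116) and EEF1G by 0.25 ± 0.075 (log2 ± SE, edgeR adjusted p = 0.0118). Among eIF3 genes 8 were higher in Sh-DDX41_1 and 0 lower, led by EIF3G at 0.46 ± 0.085 (log2 ± SE, edgeR adjusted p = 4.51e-04), EIF3D at 0.41 ± 0.064 (log2 ± SE, edgeR adjusted p = 9.47e-05) and EIF3F at 0.37 ± 0.074 (log2 ± SE, edgeR adjusted p = 7.94e-04). EIF3L differed by 0.36 ± 0.066 log2 units, edgeR adjusted p = 4.42e-04 and EIF3H by 0.30 ± 0.074 log2 units, edgeR adjusted p = 0.00355. Of these 8, EIF3B lost its call without Sh-DDX41_2 A or D (log2 0.19 to 0.21, edgeR adjusted p from 0.054 to 0.0699) and EIF3E without Sh-DDX41_1 D or Sh-DDX41_2 A, B or D (log2 0.13 to 0.27, edgeR adjusted p from 0.0517 to 0.108). The weakest of the named calls were EIF1, at 0.19 ± 0.065 log2 units, edgeR adjusted p = 0.0229, lost without Sh-DDX41_2 A, B or D (log2 0.18 to 0.20, edgeR adjusted p from 0.0594 to 0.0825), and EIF6, at 0.16 ± 0.063 log2 units, edgeR adjusted p = 0.0496, lost without sh-Control B or D or Sh-DDX41_1 A, B or D or Sh-DDX41_2 A, B or D (log2 0.13 to 0.19, edgeR adjusted p from 0.0509 to 0.182).

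The members were then read against their transcript starts. The definition of the start was chosen after values and sequences had been seen, so the counts are a description. Of the 12 tested members with a C and 4 pyrimidines, 10 were higher with Sh-DDX41_1, 0 were lower and 2 (EIF3K and EIF4B) were not called, with a median log2 fold change of 0.46. Of 34 tested members with another start, 6 were higher and 14 lower, with a median of -0.025. The 12 members with no record had 7 higher and 1 lower. With Sh-DDX41_2, 2 of the 12 with the start were higher and 0 lower, with a median of 0.12, and the 34 others had 3 higher and 3 lower, with a median of -0.090. Across all 697 tested genes with the start, 234 were higher and 151 lower with Sh-DDX41_1, with a median of 0.081. The 8308 genes without it had 1840 higher and 2161 lower, with a median of -0.012. With Sh-DDX41_2 the 697 genes had 96 higher and 86 lower, with a median of 0.035. The 8308 genes then had 923 higher and 1215 lower, with a median of -0.021. Once ribosomal protein genes and the members were set aside, 637 genes with the start had 179 higher and 151 lower with Sh-DDX41_1 and a median of 0.038.

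**Figure D4:**
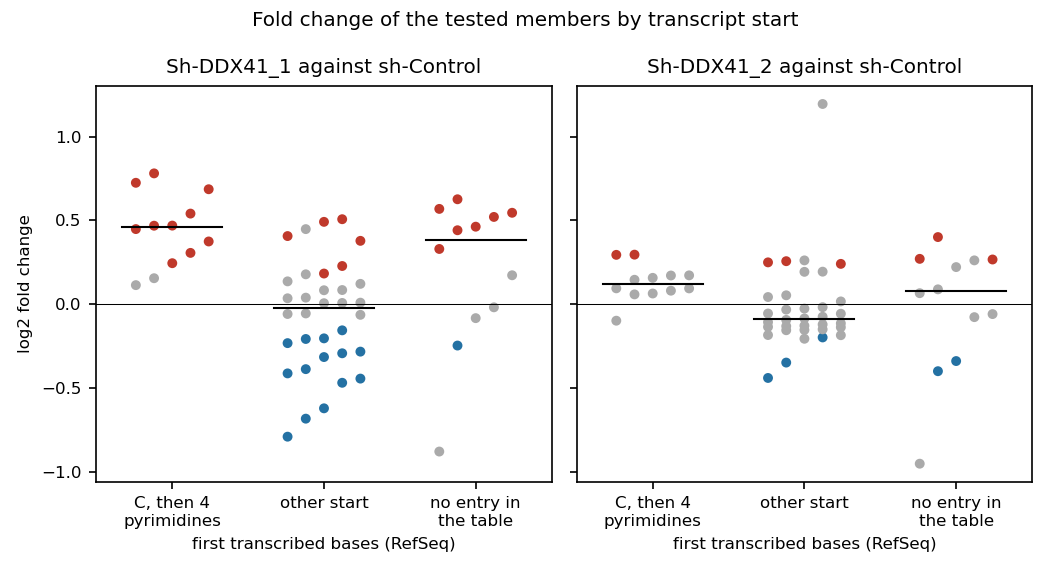
Log2 fold change of the 58 tested members with each hairpin against sh-Control, by the first transcribed bases that RefSeq lists. Points are genes, in red (higher), blue (lower) or grey (not called), and black lines are medians. With Sh-DDX41_1 the 12 members with C and 4 pyrimidines all lie above 0 (median 0.46), and all but 1 of the 15 lower calls are among the other starts, the exception being EIF4EBP1, which has no record.

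A list of 10 members known as TOP mRNAs from general knowledge (EEF1A1, EEF1B2, EEF1D, EEF1G, EEF2, EIF3E, EIF3F, EIF3H, EIF4B and PABPC1) gave 8 higher and 0 lower with Sh-DDX41_1, with a median log2 fold change of 0.48. Over all tested genes 23.7% were higher and 24.1% lower. The list was drawn up with earlier results of these data known, so its counts are a description. The 48 tested members outside it had 15 higher and 15 lower, with a median of 0.021. With Sh-DDX41_2 the list had 5 higher and 0 lower, with a median of 0.23, and the others 3 higher and 5 lower, with a median of -0.068. Of the listed genes, EEF1A1, EEF1B2, EEF2, EIF3F and EIF4B had the start described above. EEF1G had another start, and EEF1D, EIF3E, EIF3H and PABPC1 had no record. The start class thus missed some known TOP mRNAs. The rank correlation of the fold change with Sh-DDX41_1 across the 58 members was -0.087 with exon length and 0.16 with GC content, as a description over genes that are not independent.

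Other genes of the pathway outside the members were examined in 5 lists. In the first, of eIF2 kinase and phosphatase genes, 83.3% were called with Sh-DDX41_1 and 0% with Sh-DDX41_2. Over all tested genes these shares were 47.8% and 25%. Of 6 eIF2 kinase and phosphatase genes, 1 was higher and 4 were lower with Sh-DDX41_1, and 0 were called with Sh-DDX41_2 (edgeR, DESeq2 and limma voom, with 1 at an unadjusted edgeR p under 0.05). The count of 0 rested on single libraries, since PPP1R15A was called with Sh-DDX41_2 without sh-Control A (log2 0.27, edgeR adjusted p = 0.0201), EIF2AK1 without Sh-DDX41_1 D (log2 0.15, edgeR adjusted p = 0.0421) and EIF2AK2 without Sh-DDX41_1 D (log2 0.28, edgeR adjusted p = 0.022). PPP1R15A, the stress-induced subunit that directs dephosphorylation of eIF2 alpha, was at 129, 89.7 and 90.6 CPM in the sh-Control libraries, 189, 168 and 189 in Sh-DDX41_1 and 113, 105 and 108 in Sh-DDX41_2. Every Sh-DDX41_1 library was above all others, and the log2 fold change was 0.82 ± 0.11 (log2 ± SE, edgeR adjusted p = 2.68e-05). The kinases EIF2AK1, EIF2AK2 and EIF2AK3 changed by -0.30 ± 0.069 log2 units, edgeR adjusted p = 0.00222, by -0.47 ± 0.11 log2 units, edgeR adjusted p = 0.00213 and by -0.49 ± 0.12 log2 units, edgeR adjusted p = 0.00291, and the phosphatase subunit PPP1R15B by -0.26 ± 0.078 log2 units, edgeR adjusted p = 0.0133, a call lost without sh-Control B (log2 -0.22, edgeR adjusted p = 0.0673).

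Of 16 genes that control mTORC1 and eIF4F, 3 were higher and 2 lower with Sh-DDX41_1, and 1 higher and 1 lower with Sh-DDX41_2. These calls made up 31.2% and 12.5% of the list, below the 47.8% and 25% over all tested genes. MTOR, the kinase that phosphorylates the eIF4E-binding proteins, was at 86.5, 100.3 and 73.1 CPM in the sh-Control libraries, 59.7, 59.6 and 45.4 in Sh-DDX41_1 and 76.6, 77.1 and 76.7 in Sh-DDX41_2. MTOR was lower in every Sh-DDX41_1 library than in any control and changed by -0.66 ± 0.11 (log2 ± SE, edgeR adjusted p = 2.17e-04) with Sh-DDX41_1. RPS6KB1, a kinase that mTORC1 activates, changed by -0.36 ± 0.068 log2 units, edgeR adjusted p = 5.48e-04, and TSC1, an inhibitor of the pathway, by 0.45 ± 0.095 log2 units, edgeR adjusted p = 0.0013. RHEB, the GTPase that activates mTORC1, was at 67.2, 70.4 and 68.9 CPM in the sh-Control libraries, 65.6, 62.6 and 69.2 in Sh-DDX41_1 and 50.9, 49.4 and 48.5 in Sh-DDX41_2. RHEB was lower in every Sh-DDX41_2 library than in any other, at -0.47 ± 0.064 log2 units, edgeR adjusted p = 1.04e-04. MKNK1, a kinase that phosphorylates eIF4E, was higher with Sh-DDX41_1 at 0.22 ± 0.061 log2 units, edgeR adjusted p = 0.00811. LARP1 was not called with Sh-DDX41_1 (0.13 ± 0.083 log2 units, edgeR adjusted p = 0.215) or Sh-DDX41_2 (-0.036 ± 0.083 log2 units, edgeR adjusted p = 0.79). With Sh-DDX41_1 it passed the threshold without Sh-DDX41_1 D (log2 0.24, edgeR adjusted p = 0.00309). PAIP2B, an inhibitor of poly(A)-binding protein, was low at 0.888 to 1.20 CPM in control cells and higher with both hairpins, at 0.83 ± 0.26 log2 units, edgeR adjusted p = 0.0148 and 1.28 ± 0.24 log2 units, edgeR adjusted p = 0.00147. The first of these calls was lost without sh-Control A or Sh-DDX41_1 A (log2 0.71 to 0.72, edgeR adjusted p from 0.0536 to 0.0638).

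Of 7 tested release and recycling factors, 1 was higher and 2 were lower with Sh-DDX41_1, and 0 and 2 with Sh-DDX41_2. That was 42.9% and 28.6% of the list, against 47.8% and 25% over all tested genes. ABCE1, which splits ribosomes after termination, was lower at -0.36 ± 0.06 log2 units, edgeR adjusted p = 1.52e-04 and -0.20 ± 0.059 log2 units, edgeR adjusted p = 0.0221, and the rescue factor PELO at -0.26 ± 0.086 log2 units, edgeR adjusted p = 0.0213 and -0.41 ± 0.086 log2 units, edgeR adjusted p = 0.00313. HBS1L, which helps PELO rescue stalled ribosomes, was higher with Sh-DDX41_1 at 0.17 ± 0.062 log2 units, edgeR adjusted p = 0.0342, a call lost without sh-Control A or B or Sh-DDX41_1 B or Sh-DDX41_2 A, B or D (log2 0.13 to 0.17, edgeR adjusted p from 0.0539 to 0.115). The ABCE1 call with Sh-DDX41_2 was lost without sh-Control B or D or Sh-DDX41_2 A, B or D (log2 -0.21 to -0.17, edgeR adjusted p from 0.065 to 0.0851), and the PELO call with Sh-DDX41_1 without sh-Control D or Sh-DDX41_1 A or B (log2 -0.25 to -0.25, edgeR adjusted p from 0.0543 to 0.0665). Of 9 mitochondrial translation factors, 2 were higher and 2 lower with Sh-DDX41_1, and 0 and 2 with Sh-DDX41_2. That was 44.4% and 22.2% of the list, also near the shares over all tested genes. GFM2, a mitochondrial ribosome recycling factor, was at 53.5, 55.4 and 57.1 CPM in the sh-Control libraries, 17.5, 19.3 and 17.7 in Sh-DDX41_1 and 52.3, 52.2 and 52.5 in Sh-DDX41_2. It was lower with Sh-DDX41_1 at -1.61 ± 0.072 (log2 ± SE, edgeR adjusted p = 8.06e-10) and differed between the hairpins by -1.53 ± 0.072 (log2 ± SE, edgeR adjusted p = 1.34e-09), more than any member did. MRRF, the mitochondrial ribosome recycling factor, was higher with Sh-DDX41_1 at 0.27 ± 0.069 log2 units, edgeR adjusted p = 0.00494, and the mitochondrial elongation factor TUFM at 0.17 ± 0.063 log2 units, edgeR adjusted p = 0.0336, a call lost without sh-Control B or D or Sh-DDX41_1 B or Sh-DDX41_2 A or D (log2 0.13 to 0.17, edgeR adjusted p from 0.0546 to 0.139). GFM1, a mitochondrial elongation factor, was lower with both hairpins, at -0.28 ± 0.068 log2 units, edgeR adjusted p = 0.00377 and -0.25 ± 0.068 log2 units, edgeR adjusted p = 0.0151, the second call being lost without sh-Control B or D or Sh-DDX41_2 A (log2 -0.24 to -0.20, edgeR adjusted p from 0.0543 to 0.0699). With Sh-DDX41_2 the release factor MTRF1 was lower at -0.38 ± 0.11 log2 units, edgeR adjusted p = 0.0157, lost without sh-Control B or Sh-DDX41_2 D (log2 -0.35 to -0.30, edgeR adjusted p from 0.0643 to 0.0768). Of 4 hypusine and selenocysteine factors, 2 were lower with Sh-DDX41_1 and 1 was higher with Sh-DDX41_2. That was 50% and 25% of the list, again near the shares over all tested genes. DHPS, which starts hypusine synthesis on eIF5A, was lower at -0.28 ± 0.069 log2 units, edgeR adjusted p = 0.00345, and the selenocysteine elongation factor EEFSEC at -0.27 ± 0.092 log2 units, edgeR adjusted p = 0.0273, a call lost without sh-Control B or Sh-DDX41_1 A or D (log2 -0.27 to -0.19, edgeR adjusted p from 0.0577 to 0.119). SECISBP2, which binds selenocysteine insertion elements, was higher with Sh-DDX41_2 at 0.24 ± 0.083 log2 units, edgeR adjusted p = 0.0466, a call lost without sh-Control A or D or Sh-DDX41_2 A, B or D (log2 0.17 to 0.27, edgeR adjusted p from 0.0656 to 0.207).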

How the data were processed

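The authors sequenced the mRNA of MOLM13 cells sorted 4 days after transduction, with 3 libraries in each of the groups, which were taken from the labels. The authors deposited whole-number counts per gene, not normalized, for the 9 libraries. The submitters' processing notes name FastQC 0.11.7, HISAT2 2.0.5 and featureCounts 1.5.2, and the builds hg38 and mm10 without a role. The annotation and the treatment of reads that fit several genes are not given in the sources used here, so near-identical copies are uncertain. Of the 11 tested members with such copies, EEF1A1 among them, 4 were higher and 0 lower with Sh-DDX41_1. That was 36.4% called, against 47.8% of all tested genes. The labels name a stranded library kit and the methods of the study an unstranded one, so members that overlap a gene on the other strand (EIF3J and EIF1B, with antisense RNAs in the table) are uncertain too. All columns were matched to a library (0 unmapped).

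For the tests, edgeR 4.0.16 was run in R 4.3.3. After filterByExpr with a minimum count of 10 and TMM scaling (factors 0.963 to 1.02), group means were fitted to the 9 libraries together by quasi-likelihood. The 3 contrasts were tested two-sided, with Benjamini-Hochberg adjustment over 12712 genes and a call at an adjusted p under 0.05. Each SE was derived from the log2 fold change and its F statistic. The biological coefficient of variation was 0.0768, so counting error is the smaller part at most members' levels. Replicates of a group correlated at 0.9899 or above on the log scale, and no 2 agreed within sampling noise. Sh-DDX41_1 D stood furthest from its group. Its chi-square per degree of freedom was 17.6 against A and 19.2 against B, where A against B gave 2.91. Alternatives used DESeq2 1.42.0 and limma 3.58.1 and are given below, and the test was tried on simulated data. Exon lengths came from GENCODE 29.

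Members and gene lists were chosen with earlier results of these data known. Named were 16 members of fixed role, and in each contrast the 5 called members with the largest rise and the 5 with the largest fall among those with a mean of at least 5 CPM in the higher group. Other members are given beside them by role, chosen after their values were seen.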

Additional observations from a re-analysis of the deposited data

How the results depend on the processing

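Of the 23 alternatives, the one that left out near-identical copies was compared for counts of members only. For 72 differences of single genes, 1429 of 1584 comparisons with the others kept the direction and the side of the threshold. For 12 counts of calls, 236 of 273 comparisons stayed within 1.5 times the count given, as for the 18 members called with Sh-DDX41_2 under the replicate block in place of 13. The direction of the 38, 13 and 32 calls of members held throughout, and every reversal concerned a difference that was not called. Upper quartile factors moved the median of all genes with Sh-DDX41_1 from 0.012 to 0.087, gave EIF3A 0.057 with Sh-DDX41_1, EIF4E2 0.0067 with Sh-DDX41_2 and EIF4A3 0.036 between the hairpins, and left 5 members lower between the hairpins. Library sizes alone gave EIF5A -0.0098 and EIF2B1 -0.0066 with Sh-DDX41_1, EIF4A3 0.00090 between the hairpins, and 8 members lower with Sh-DDX41_2. Offsets for exon length and GC content, chosen after seeing the data, gave 9 members lower with Sh-DDX41_1, with EIF3A at 0.025, EIF5A at -0.019 and EIF2B1 at -0.0015. With Sh-DDX41_2 they gave 20 members called and 10 lower, and between the hairpins EIF4E 0.11, EIF4EBP1 -0.016 and PABPC1 -0.0095. Only the 6 libraries compared gave 22 members called and 15 higher with Sh-DDX41_2. The cause of these shifts was not tested.

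At an adjusted p under 0.01, 9 members were lower with Sh-DDX41_1, 7 were called and 3 higher with Sh-DDX41_2, where 1670 of all genes were called, and 4 were lower between the hairpins. With a fold change of at least 1.5 required as well, 7 members were called with Sh-DDX41_1 (4 higher, 3 lower) among 2336 genes, 0 with Sh-DDX41_2 (0 higher, 0 lower) among 901 genes, and 4 between the hairpins (2 higher, 2 lower) among 2410 genes.

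Leaving out 1 library at a time gave 6 to 25 members called with Sh-DDX41_2, 2 to 16 higher and 4 to 9 lower, and 2054 to 4248 of all genes. Between the hairpins it gave 5 to 11 members lower. Differences that changed sign were EIF1 (-0.011 to 0.083), EIF5A (-0.044 to 0.058) and EIF2B1 (-0.045 to 0.056) with Sh-DDX41_1, EIF4A2 (-0.20 to 0.0062) and EIF4E2 (-0.054 to 0.0048) with Sh-DDX41_2, and EIF4A3 (-0.053 to 0.023) between the hairpins. Deviations of the 9 pairs of libraries with the same letter correlated at -0.057 to 0.24, and 2 exceeded 0.1, so the letters were not taken to pair the samples. With the letter as a replicate block, 38, 18 and 33 members were called in the 3 contrasts, and DDX41 changed by -3.29 and -1.51.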
